A study of Mus musculus with 3 samples.

Results

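The Ras and Raf family with Nf1 was examined here in normal mouse muscle, as 8 genes: the Ras GTPases Hras and Nras, the R-Ras GTPases Rras, Rras2 and Mras, the Raf kinases Araf and Braf, and the Ras inhibitor Nf1. They are part of a larger family. Their members on the array were all probe sets that the platform annotation assigns to exactly 1 of these symbols. This gave 11 probe sets of 7 genes, out of 20393 probe sets of 12394 genes with a single symbol. Hras had no such probe set and is not analysed here. A probe set is a group of short probes to 1 transcript or a few, and its value is a log2 level made by the RMA procedure, so a difference of 1 is a 2-fold difference in signal.

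The samples were 3 normal muscles, called muscle 1, muscle 2 and muscle 3, each on 1 array. Their labelled genotype is littermate control and their age 3 to 6 weeks. They are the normal controls of a study that asked how tumours derived from Pax7-expressing satellite cells, arising in vitro or in vivo, relate to each other and to other sarcomas, and the tumours were not analysed here. The labels do not name the alleles of the littermates, the muscle taken, whether the controls received the 4-hydroxytamoxifen described for the tumour mice, or whether the muscles came from separate animals. Every SD and p below therefore covers the differences among these arrays, part or all of which may be technical. With 1 group there is no contrast between conditions, and precision is limited by the number of arrays.

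Ras proteins are small GTPases that switch between a GDP-bound resting form and a GTP-bound active form at the cell membrane. Exchange factors load them with GTP, and GTPase-activating proteins such as neurofibromin, the product of Nf1, return them to rest. Active Ras recruits Raf kinases, which phosphorylate the MAP kinase kinases and through them the ERK kinases. In muscle the pathway carries growth factor signals to satellite cells, and its activation is known to drive sarcomas of muscle in mice.

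As a check on the tissue, all 10 measured skeletal muscle fibre markers were above the background level in each muscle. This level was set at the 95th percentile of the values of 90 probe sets, which stand for 62 genes typical of other organs, and was 6.34, 6.43 and 6.37 in muscles 1, 2 and 3. Markers of other cells were above it in all 3 muscles as well, for 7 of 7 fibroblast, 7 of 8 endothelial, 6 of 8 macrophage, 4 of 7 lymphocyte, 5 of 6 adipocyte, 3 of 6 Schwann cell and 7 of 8 smooth muscle genes. The smooth muscle list includes Des, at 12.69, which skeletal fibres also express, so its signal does not speak for smooth muscle. By the other markers the tissue was a mixture, and which of its cells gave the Ras and Raf signals was not tested. Fewer cells of a type and less RNA per cell cannot be told apart in such samples. The summed log2 level of a marker list was lowest in muscle 3 for 6 of these 7 other cell types, all but the Schwann cell list. These sums include genes below background in some or all muscles, such as Lep among the adipocyte genes. Muscle 3 was also lowest for 47.7% of probe sets above background in at least 1 muscle, and no difference in cell content is read from this count. Between its highest and lowest muscle the summed level differed least for fibre markers, by 0.02 per gene. It differed most for lymphocyte markers, by 0.20 per gene (from 44.2 in muscle 3 to 45.6 in muscle 1). Fibre markers, with a median of 13.34 in each muscle, lay near the highest values on the arrays, 13.73 to 13.75. Equal fibre content therefore cannot be read from their small difference. The endothelial receptor gene Kdr read 7.60, 7.35 and 6.99 in muscles 1, 2 and 3. The adipocyte hormone gene Lep read 5.94, 6.60 and 5.36, above background in muscle 2 alone. Other genes of the same lists were highest in muscle 3, namely Esam and Egfl7 of endothelium and Cidec, Lipe and Retn of adipocytes. All of these genes were named after their values were seen. Over the 9233 probe sets above background in all muscles the median SD was 0.0759. Muscle 3 stood apart somewhat: over the 10114 probe sets above background in at least 1 muscle, the SD of its difference was 0.211 from muscle 1 and 0.219 from muscle 2, while that between muscles 1 and 2 was 0.154. Its part in the values below was not tested. Without it the largest move among the means of the 11 probe sets was 0.15, and no probe set changed its call against background. Leaving out 1 muscle cannot move a mean by as much as its SD, so such small moves say nothing about stability.

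Of the 11 probe sets, 7 lay above background in every muscle and 4 in no muscle. Over all 20393 probe sets these shares were 45.3% and 50.4%, so the counts are not a result about the family. By the highest probe set of each gene, Nras, Rras, Rras2 and Araf were above background in every muscle, and Mras, Braf and Nf1 were below it in every muscle. That is 4 of 7 genes above, where the share over all genes was 52.8%, and 43.3% of all genes were above in no muscle. Probes differ in how strongly they bind, so levels are set against background only and not against those of another gene. A signal below background does not show that a transcript was absent.

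**Figure D1:**
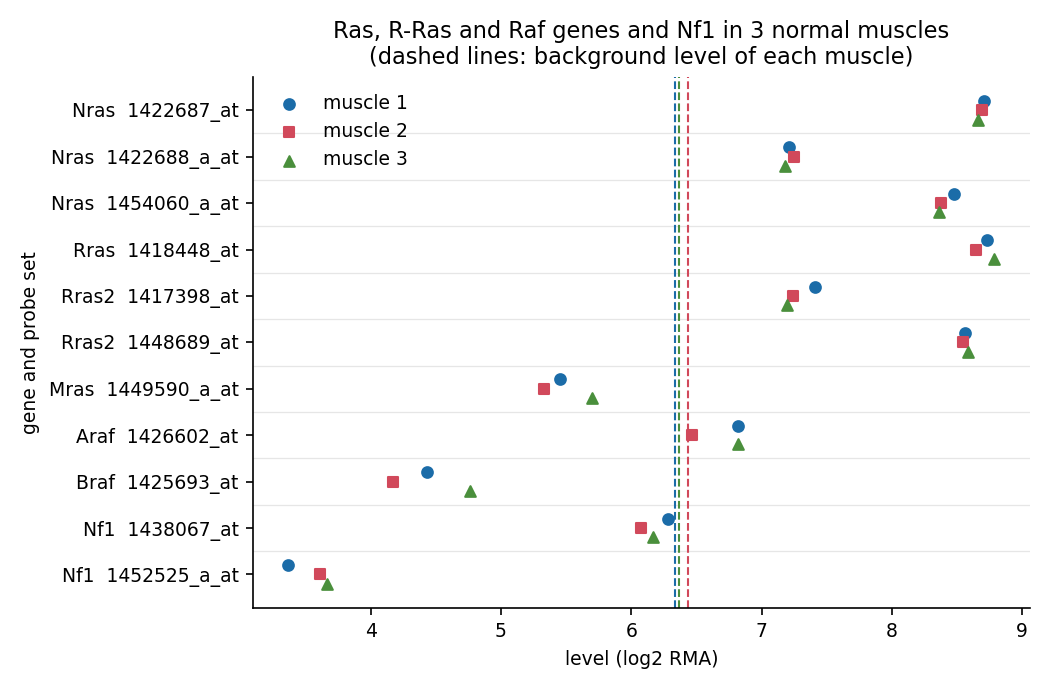
Level (log2 RMA) of each of the 11 probe sets in muscle 1 (circles), muscle 2 (squares) and muscle 3 (triangles), with dashed lines at the background level of each muscle. The probe sets of Nras, Rras, Rras2 and Araf lie right of the lines, those of Mras, Braf and Nf1 left of them, and Araf in muscle 2 and the upper Nf1 probe set come closest to the lines.

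Nras, one of the classical Ras proteins mutated in human cancers, was measured by 3 probe sets, all above background. Probe set 1422687_at read 8.70, 8.69 and 8.66 in muscles 1, 2 and 3, or 8.68 ± 0.02 (SD, n = 3). Probe set 1454060_a_at was at 8.48, 8.37 and 8.36 in the same muscles, with a mean of 8.40 ± 0.07. The 3 muscles were thus nearly level, and the first of these probe sets differed by a factor of 1.03 between its highest and lowest muscle. Probe set 1422688_a_at gave 7.21, 7.25 and 7.18, which is 7.21 ± 0.03. It read 1.47 ± 0.03 below 1422687_at, a gap that was between 1.44 and 1.49 in each muscle. Its gap to 1454060_a_at was less even, at -1.27, -1.12 and -1.18 in muscles 1, 2 and 3. It was highest in muscle 2, whereas the other probe sets of Nras were highest in muscle 1. Muscle 3 was the lowest for all 3, as it was for 47.7% of the 10114 probe sets above background in at least 1 muscle.

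The R-Ras GTPases, relatives of Ras tied to cell adhesion and migration, divided into those above and those below background. Rras, the founding member, had 1 probe set (1418448_at), which read 8.73, 8.65 and 8.79 in muscles 1, 2 and 3, a mean of 8.72 ± 0.07. It stood from 2.21 to 2.42 above background, with muscle 2 the lowest. Rras2, also known as TC21 and able to transform cells when mutated, had 2 probe sets. Probe set 1448689_at was at 8.56, 8.55 and 8.58 in muscles 1, 2 and 3. Its SD of 0.02 was the smallest of the 11, and its highest and lowest muscle differed by a factor of 1.03. The other, 1417398_at, read 7.41, 7.24 and 7.20 in muscles 1, 2 and 3, which is 7.28 ± 0.11. Here muscle 1 was the highest by 0.19 over the mean of the others, a departure that 1448689_at, at -0.01, did not show. The gap between the probe sets of Rras2, -1.28 ± 0.12, was less even across muscles than the gaps within Nras, whose largest SD was 0.07.

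Mras, which binds Shoc2 and a phosphatase subunit to form a complex that activates Raf, was below background. Its 1 probe set (1449590_a_at) read 5.46, 5.33 and 5.70 in muscles 1, 2 and 3, a mean of 5.49 ± 0.19. Of the 90 background probe sets, 17, 16 and 12 read higher in muscles 1, 2 and 3, so the signal could not be told from that of genes of other organs.

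The Raf kinases are the first kinases of the cascade below Ras. Araf was the detected member nearest to background. Its probe set (1426602_at) read 6.82, 6.47 and 6.82 in muscles 1, 2 and 3, or 6.70 ± 0.20. Muscles 1 and 3 were alike, and muscle 2 lay 0.35 below their mean and only 0.04 above its own background level. Braf, the Raf kinase most often mutated in human tumours, was below background in each muscle. Its 1 probe set (1425693_at) read 4.44, 4.17 and 4.76 in muscles 1, 2 and 3, a mean of 4.46 ± 0.30. Of the 90 background probe sets, 28, 35 and 23 read higher in muscles 1, 2 and 3. The range of 0.59 between muscles was the widest of the 11 probe sets, and all 3 values lay within the background.

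Nf1 encodes neurofibromin, the GTPase-activating protein lost in neurofibromatosis type I, and was measured by 2 probe sets that differed widely. Probe set 1438067_at read 6.28, 6.08 and 6.17 in muscles 1, 2 and 3, which is 6.17 ± 0.10. These values were 0.06, 0.36 and 0.20 below the background level, and 6, 7 and 7 of the 90 background probe sets read higher. The call of this probe set depends on where the level is drawn: at the 90th percentile it was above background in all 3 muscles. With 3 keratin genes of skin taken out of the background list, a choice made after seeing the data, it was 0.19 above the level in muscle 1 but 0.20 and 0.01 below it in muscles 2 and 3. Probe set 1452525_a_at was at 3.37, 3.61 and 3.67 in muscles 1, 2 and 3, or 3.55 ± 0.16, amid the background probe sets, of which 61, 53 and 52 read higher. The muscles were not in the same order for both, since muscle 1 was the highest for one and the lowest for the other. Of the 3 member genes with several probe sets, 0 held both a probe set above background in all muscles and one above it in none, a split found in 41.1% of all genes with several probe sets.

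The start regions of Nras, with 3 probe sets above background, and of Braf, with its probe set below, are shown as examples of both kinds. They are taken from RefSeq on build GRCm38.p6, from 250 bases before to 50 after a start, written 5′ to 3′ on the gene's strand. The region of Nras is chr3:103058035-103058334 on the plus strand, with the motif GGGCGG (GC box) in capitals, and that of Braf is chr6:39725414-39725713 on the minus strand, with the motif TGACGTCA (cAMP response element) in capitals.
Nras: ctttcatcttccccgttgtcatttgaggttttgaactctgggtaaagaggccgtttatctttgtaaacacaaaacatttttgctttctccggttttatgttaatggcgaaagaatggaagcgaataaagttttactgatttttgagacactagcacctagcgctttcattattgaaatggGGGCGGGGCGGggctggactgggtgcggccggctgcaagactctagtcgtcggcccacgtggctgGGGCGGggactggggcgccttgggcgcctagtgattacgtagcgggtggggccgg
Braf: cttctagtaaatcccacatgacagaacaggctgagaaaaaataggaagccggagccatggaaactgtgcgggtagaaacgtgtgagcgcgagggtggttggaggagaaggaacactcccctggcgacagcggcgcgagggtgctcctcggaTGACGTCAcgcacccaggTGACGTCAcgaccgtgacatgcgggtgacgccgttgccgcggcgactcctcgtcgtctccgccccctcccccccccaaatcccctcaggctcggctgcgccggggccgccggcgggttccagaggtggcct
The Nras region holds 3 copies of GGGCGG, 2 of which overlap by their end bases, and the Braf region holds TGACGTCA 2 times. The G and C content is 52.3% for Nras and 65% for Braf, with 19 and 30 CpG dinucleotides, where the medians over 32851 such regions were 52.7% and 7.

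All 8 genes had an entry in that set, with 10 regions in all since Rras has 3 listed starts. The number of CpG dinucleotides ran from 2 and 6 in the later starts of Rras to 36 in Mras, with a median of 19.5. Searched on both strands, GGGCGG was found in 6 of the 10 regions, against 35.7% of all regions. The motif CCAAT was found in 5 of 10, against 37.4%. Among these are both later starts of Rras, whose regions overlap, so a site may be counted more than once. TGACGTCA was found in that of Braf alone, against 1.79% of all regions, and CACGTG (E-box) in that of Nras alone, against 7.15%. The TATA box, searched as TATAAA, was in 0 of 10, against 13.6%. None of the 5 motifs contains another. Regions with GGGCGG belonged to genes above background, such as Nras, and to genes below it, such as Mras. A match describes the letters and not a bound site.

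The spread between muscles was compared first with that of all probe sets above background, whatever their level. It was then compared with the SD that limma fits for each level. The SDs of the 7 probe sets above background ran from 0.02 for Rras2 (1448689_at) to 0.20 for Araf, with a median of 0.0659, beside 0.0759 over all probe sets above background. The order of these medians depended on 1 muscle. They were 0.0336 for the 7 and 0.0652 for all without muscle 1, 0.0334 and 0.0631 without muscle 2, but 0.0589 and 0.0523 without muscle 3. In limma's variance test over 10114 probe sets, 0 of the 7 were called at an adjusted p of 0.05 and 0 had an unadjusted p under 0.05. Over all of them 12 probe sets, or 0.119%, were called, and 5% had an unadjusted p under 0.05. Muscle 3 was the muscle most apart in 11 of these 12. The 12 became 0 without muscle 1 or without muscle 2, and 2 without muscle 3. With fewer arrays the test can call less, whichever muscle is left out, so these counts do not show which muscle the calls depend on. Araf had the lowest p of the 7, with an unadjusted 0.22 and a limma adjusted p of 0.99. Its SD was 1.41 times that fitted for its level, and it was the only one above 1. For Nras 1422687_at, 1422688_a_at and Rras2 1448689_at the SD was 0.31, 0.29 and 0.23 times the fitted one.

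**Figure D2:**
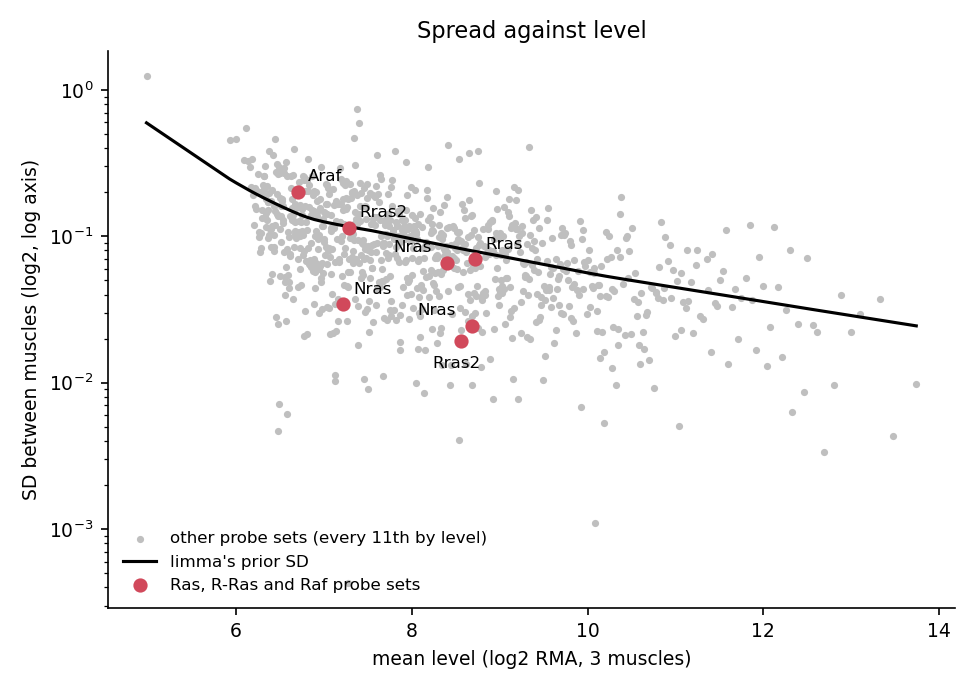
SD between the 3 muscles (log axis) against mean level for the 7 Ras, R-Ras and Raf probe sets above background, over a sample of the other probe sets and the SD that limma fits for each level. Araf is the only one of the 7 above the fitted line, and 1 probe set of Rras2 has the lowest SD, 0.02.

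The test could show only large differences. With the other muscles level, 1 muscle would have had to depart by 1.24 for Rras, by 1.25, 1.86 and 1.35 for Nras 1422687_at, 1422688_a_at and 1454060_a_at, by 1.83 and 1.29 for Rras2 1417398_at and 1448689_at, and by 2.24 for Araf, to be called alongside the 12. The largest departure seen among the 7 was that of Araf in muscle 2, -0.35. Muscle 2 was the lowest for 6 of the 11 probe sets, those of Rras, Mras, Araf and Braf, 1448689_at of Rras2 and 1438067_at of Nf1. Over all probe sets it was the lowest for 32.6%, and 3 of these 6 were below background.

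**Figure D3:**
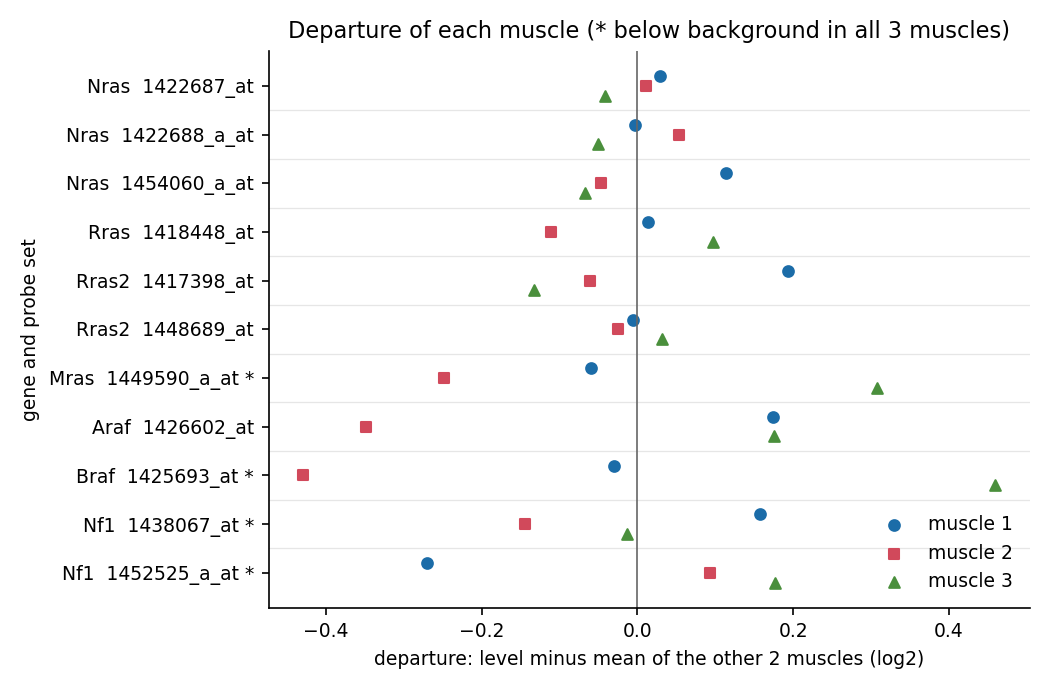
Departure of each muscle, its level minus the mean of the other 2 muscles (log2), for the 11 probe sets, with those below background marked by an asterisk. Departures are within 0.2 for Nras, Rras and Rras2, reach -0.35 for Araf in muscle 2, and are widest for Braf, from -0.43 in muscle 2 to 0.46 in muscle 3.

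The genes that act around Ras and Raf were taken from 6 lists by role. Of 100 listed genes 83 were measured. Of these 61, or 73.5%, were above background in all 3 muscles by their highest probe set, 20 in none and 2 in some, beside 52.8% of all genes above in all muscles and 43.3% above in no muscle. The count of 61 depended on where the background level was drawn. It was 47 at the 99th percentile and 64 at the 90th, so the counts for single lists below hold for the level used here only. The lists hold many genes that most cells use, and nothing particular to the pathway is read from these shares. The median SD of these 61 genes was 0.0614. Of the 63 above background in at least 1 muscle, which were tested, 0 were called by limma for excess variance. At an unadjusted p under 0.05 there were 4 of 63, near the 5% over all probe sets, namely the GTPase-activating gene Rasa3, the adaptor Crkl, the GTPase Ralb and the early response gene Egr1, with limma adjusted p from 0.80 to 0.95. The last 3 were named after their values were seen.

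Upstream of Ras, 8 of 14 exchange factors and adaptors were above background. The adaptor Grb2, which links receptors to Sos, was at 8.99 ± 0.07, and Shc1 and Gab1, 2 further adaptors, at 6.87 ± 0.26 and 7.35 ± 0.09. Of the exchange factors themselves Sos2 was at 8.97 ± 0.02, while Sos1 was below background at 5.42 ± 0.14. The tissue-restricted exchange factors Rasgrp1, Rasgrp2, Rasgrp4, Rasgrf1 and Rasgrf2 were below it as well, with means from 3.69 for Rasgrp1 to 5.89 for Rasgrp2. Shoc2 and Ppp1cb, partners of Mras in its complex, were at 8.48 ± 0.13 and 11.17 ± 0.07, above background where Mras was not, and were named after their values were seen.

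In the broad list of Ras GTPase-activating and inhibitory genes, 11 of 14 measured genes were above background. They included Rasa1, encoding the first Ras GTPase-activating protein described, at 8.39 ± 0.07, its relatives Rasa2 at 6.82 ± 0.09 and Rasa3 at 7.52 ± 0.28, and Dab2ip at 7.81 ± 0.05. Rasa3 read 7.66, 7.70 and 7.20 in muscles 1, 2 and 3, lower in muscle 3 than in the other 2. Rasa4 and Rasal1 were below background, at 6.08 ± 0.19 and 4.92 ± 0.08, and Rasal2, named after its values were seen, was above it in 2 of 3 muscles. Several genes of the same role as Nf1 were thus above the 95th percentile of background where Nf1 was not.

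Of the genes that attach lipids to Ras and carry it to the membrane, 11 of 11 were above background. The farnesyltransferase subunits Fnta and Fntb were at 9.96 ± 0.02 and 7.55 ± 0.06. Rce1 and Icmt, which cut and methylate the farnesylated tail, were at 6.80 ± 0.09 and 6.94 ± 0.05. In the broad list named for the cascade below Raf, 12 of 12 measured genes were above background. The MAP kinase kinases Map2k1 and Map2k2 were at 8.79 ± 0.12 and 9.60 ± 0.03, and the scaffolds Ksr1 and Lamtor3 at 8.37 ± 0.04 and 9.56 ± 0.04.

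Other small GTPases of the Ras branch were above background in 9 of 17 cases. Rap1a and Rap1b, which act in adhesion, were at 10.85 ± 0.06 and 10.54 ± 0.02, and Rap2a and Rap2b at 7.42 ± 0.08 and 7.24 ± 0.11. Rit2, Rasd1, Rasd2, Rerg, Rasl12, Eras, Rrad and Gem were below it, with means from 2.97 for Eras to 5.94 for Rasl12. Among genes that respond to the cascade or feed back on it, 10 of 15 were above background. The phosphatases Dusp6, Dusp1 and Dusp7, which act on MAP kinases, were at 8.70 ± 0.08, 11.07 ± 0.05 and 7.32 ± 0.15, and the feedback inhibitor Spry1 at 8.83 ± 0.01. Spry4, Etv5, Fosl1 and Elk1 were below it, with means from 4.57 for Spry4 to 6.16 for Elk1, and Etv4 was above it in muscle 3 alone, at 6.71, with 6.12 and 6.19 in muscles 1 and 2. Etv4 was named after its values were seen. Levels of transcripts do not show whether the pathway was active.

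**Figure D4:**
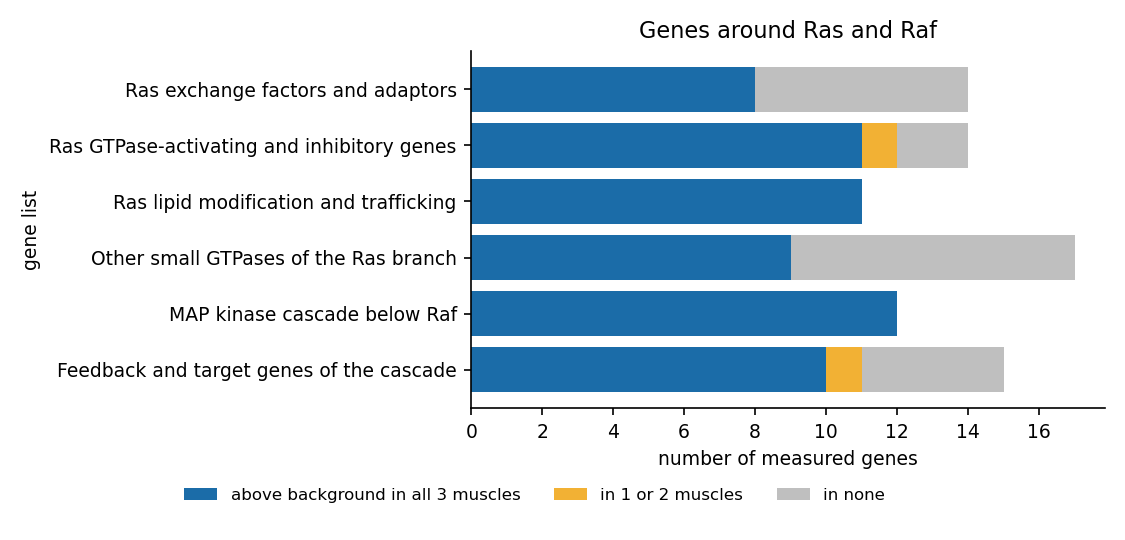
Number of measured genes above background in all 3 muscles, in 1 or 2 muscles and in none, for 6 lists of genes around Ras and Raf. The lists of lipid modification (11 of 11) and of the cascade below Raf (12 of 12) are above background throughout, while 6 of 14 exchange factors and adaptors and 8 of 17 other small GTPases are below it in every muscle.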

How the data were processed

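For the 3 normal muscles the authors deposited a log2 value for every probe set, and the submitters' processing notes name RMA, without a version. Per the labels' protocols, Trizol RNA was used, with 500 ng labelled with biotin. Which arrays were normalized together is not given in the sources used here. RMA aligns the distributions of the arrays, which hides a difference common to most transcripts. There are no detection calls, and probe sequences were not used, so signal from related transcripts could not be separated.

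Of 22690 probe sets, 20393 had 1 gene symbol, 691 several and 1606 none. The last 2 kinds were left out. All 11 member probe sets matched RefSeq by Entrez number. For values per gene, the probe set of highest mean stood for the gene. Background was the 95th percentile per muscle of 90 probe sets of 62 measured genes, out of 76 listed, of other organs. For probe sets above it in at least 1 muscle, the variance (2 degrees of freedom) was tested one-sided against limma's robust prior with a trend on level (limma 3.58.1, R 4.3.3), with Benjamini-Hochberg adjustment over all 10114. In 5 simulations of these probe sets for this test, 200 of which were moved in 1 muscle, 0% were called for a move of 0.5, 17% for 1 and 85.7% for 2. With none moved there was 1 call in 50570 tests.

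Members and lists were chosen with earlier results of these data known. Named were all members, the first 4 detected genes of each list, its genes below background in all muscles and any of excess variance or a range of 1 while above background. Correlations over 3 samples were not computed. Alternatives were other background percentiles, scalings, probe set rules and priors, no filter, leaving out each muscle, and a background list without 3 keratin genes. Other steps used Python 3.11.15 (matplotlib 3.10.9, pandas 2.3.3, numpy 2.4.6, scipy 1.17.1).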

Additional observations from a re-analysis of the deposited data

How the results depend on the processing

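No paired analysis was possible because the labels give 1 group. After a further quantile normalization the mean of no member probe set moved by more than 0.0033. The arrays were already aligned, with a median of 6.12 in each muscle, so this step left means little room to move. Median centring, leaving out 1 muscle and leaving out _s_at and _x_at probe sets, of which the members have none, could not move a mean by as much as its SD and say nothing about stability. In all, 0 member probe sets were called for excess variance by limma, or had an unadjusted p under 0.05, under any alternative. The count of 7 probe sets above background became 4 at the 99th percentile, where Araf was below background in all muscles and Nras 1422688_a_at and Rras2 1417398_at in some. It was 8 at the 90th percentile, with Nf1 1438067_at added. The count of 61 pathway genes became 47 at the 99th and 64 at the 90th percentile, and 58 without _s_at and _x_at probe sets. Rce1 and Icmt, at 6.80 and 6.94, read lower than Nras 1422688_a_at in every muscle. The 11 of 11 for lipid modification therefore does not hold at the 99th percentile. The median SD of the members above background, 0.0659, was 0.0461 after the further quantile normalization and ran from 0.0334 to 0.0589 with a muscle left out. The 12 probe sets called over the whole table became 1 at the 99th and 19 at the 90th percentile, 24 after quantile normalization and 4 with the highest probe set of each gene. They became 0 with no trend, a prior that was not robust or the mean over probe sets (350, 429 and 258 at an unadjusted p under 0.05), and ran from 0 to 2 with a muscle left out. A test on fewer arrays can call less, whichever muscle is left out. The calls were 0 without muscle 1 or muscle 2 and 2 without muscle 3, with 457, 432 and 494 at an unadjusted p under 0.05. The cause of these moves was not tested. Closeness to background limits what can be said of Araf, Mras, Braf and Nf1.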
